A study of Mus musculus with 12 samples.

Results

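Ricolinostat, which blocks histone deacetylases and HDAC6 most of all, and JQ1, which blocks the bromodomains of BET proteins, were compared in libraries labelled as T cells of mouse lung tumours. The comparison rests on 4 of the 12 libraries of the study, 2 labelled as T cells of ricolinostat-treated mice and 2 as T cells of JQ1-treated mice, chosen by those labels alone. Every mouse carried lung tumours of the KrasTrp53 genetically engineered model on a mixed strain background, so that genotype is shared by all groups, and RNA was taken from cells purified out of tumour suspensions. Expression of 770 mouse immune genes was counted with NanoString probes, which tag and count transcripts without amplification. A pair of vehicle T cell libraries serves as the level without drug, and 6 macrophage libraries from the same model, 2 each of vehicle, JQ1 and ricolinostat, are used to ask whether the difference between the drugs is larger in T cells. Doses, schedules, ages and the method of purification are not given in the sources used here. No label says whether the 2 libraries of a group are from different mice, and the p-values below therefore speak of the variation between libraries, possibly technical only.

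T cells recognise peptides through a receptor that signals through the CD3 chains, which are phosphorylated by the kinase Lck and then recruit Zap70. The same cells carry coreceptors, costimulatory receptors such as CD28 and ICOS, inhibitory receptors such as PD-1 and CTLA-4, and receptors for interleukin-2 and interleukin-7 that support their survival. BET proteins bind acetylated histones at active enhancers and promoters and JQ1 displaces them. HDAC6 is mainly cytoplasmic, with tubulin among its known substrates, and ricolinostat also acts on nuclear histone deacetylases at higher exposure.

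The values are normalised signals on a linear scale. The signal that 1 count carries, read from the spacing of the low values, was 1.43 and 1.55 in the JQ1 libraries and 1.73 and 3.6 in the ricolinostat libraries, so the floor of 20 used here stands for about 5.56 to 14 counts. The 6 T cell libraries held between 1456669 and 2076329 counts by the same reading, which divides the total signal by the signal per count. Ricolinostat replicate 2, whose label carries the number 33, departed from the other T cell libraries in genes of every kind. Across 630 genes its Spearman correlation with them was 0.767 to 0.794, where the JQ1 replicates correlated at 0.978 with each other and at 0.947 and 0.951 with ricolinostat replicate 1. Against the JQ1 mean, the 20 housekeeping genes lay between -0.38 and 0.33 on the log2 scale in ricolinostat replicate 1 and between -4.31 and 4.08 in replicate 2. Replicates differed over the tested genes with an SD on the log2 scale of 2.21 under ricolinostat, 0.852 under JQ1 and 0.646 under vehicle. Macrophage ricolinostat libraries differed in the same way, with an SD of 2.63. Whether the probes of these 2 libraries are assigned to genes as in the others was not tested, so their values, and each difference that pools them, stand as the deposited table names them. Values of both ricolinostat libraries are therefore given singly for the genes described.

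**Figure D1:**
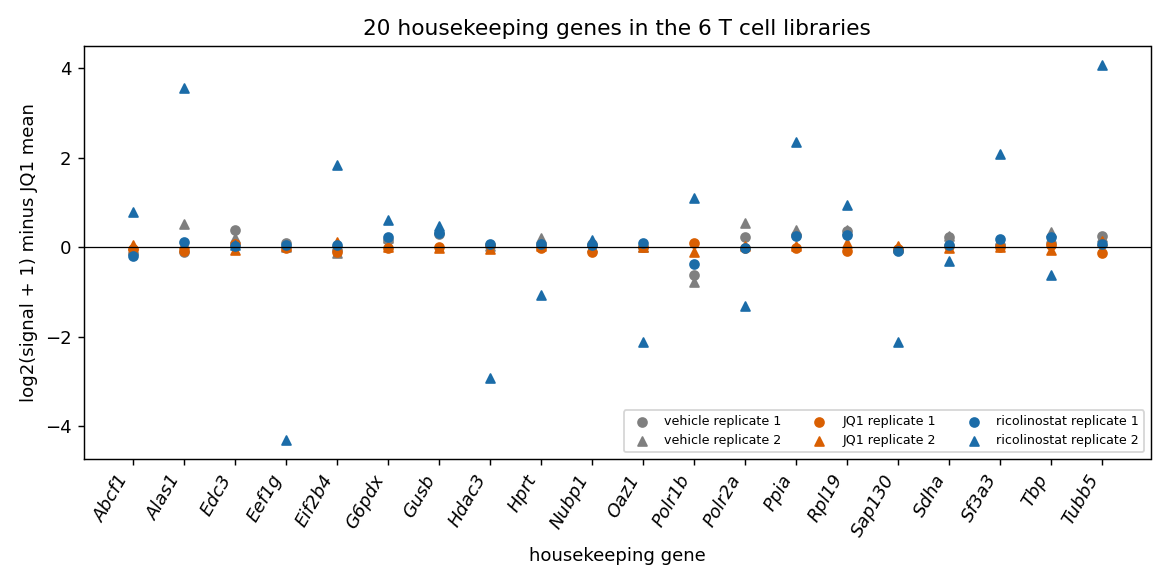
Log2(signal + 1) of the 20 housekeeping genes in the 6 T cell libraries, minus the mean of the 2 JQ1 libraries; circles are replicate 1 and triangles replicate 2. Ricolinostat replicate 2 spans -4.31 to 4.08, while ricolinostat replicate 1 stays within -0.38 to 0.33 of the JQ1 mean.

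Defining markers of T cells were at or near the floor in the libraries labelled as T cells of JQ1-treated mice, against that label. The summed signal of the 4 CD3 chains Cd3d, Cd3e, Cd3g and Cd247 was 44.8 and 35.5 in the JQ1 libraries, against 1442 and 1484 under ricolinostat and 2059.7 and 2236 under vehicle. It was 15.4 to 38.3 in the macrophage libraries other than ricolinostat replicate 2, and 166 in that library. The JQ1 T cell libraries are thus close to the macrophage libraries, one of them slightly above the first range. The libraries labelled as JQ1 T cells were still unlike the macrophage libraries in other genes: Cxcl15, a chemokine of airway epithelium, read 66115 and 60816 there and 257 and 518 in the JQ1 macrophage libraries. In pooled RNA, fewer T cells and less T cell RNA per cell cannot be told apart, and this holds for every T cell gene below. Macrophage genes were abundant in all T cell libraries: the 27 macrophage identity genes made up 41% and 41.1% of all signal in the JQ1 libraries, 40.5% and 18.3% in the ricolinostat libraries and 42.3% and 38.9% under vehicle. In the macrophage libraries they made up 42.2% and 41.5% under JQ1, 40.6% and 17.9% under ricolinostat and 41.3% and 36.3% under vehicle. By this share the libraries labelled as T cells were close to the macrophage libraries in every group, vehicle and ricolinostat included.

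Promoters are shown for the CD3 chain genes Cd3d and Cd3e, neighbours on chromosome 9 that were both higher under ricolinostat, for Pdcd1, a gene at the floor under JQ1, and for Slamf7, the one gene called lower. Each is the RefSeq sequence of build GRCm38.p6, read on the gene's own strand from 250 bases before to 50 bases after its start site, and capitals mark the letters AGGAAG or their reverse complement CTTCCT, a sequence that Ets family factors can bind.
Cd3d, chr9:44981536-44981835, plus strand: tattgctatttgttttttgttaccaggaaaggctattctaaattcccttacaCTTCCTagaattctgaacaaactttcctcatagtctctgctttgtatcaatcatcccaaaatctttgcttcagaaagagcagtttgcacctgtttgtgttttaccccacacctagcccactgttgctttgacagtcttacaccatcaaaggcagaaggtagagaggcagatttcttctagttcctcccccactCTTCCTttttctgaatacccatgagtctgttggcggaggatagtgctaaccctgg
Cd3e, chr9:45009562-45009861, minus strand: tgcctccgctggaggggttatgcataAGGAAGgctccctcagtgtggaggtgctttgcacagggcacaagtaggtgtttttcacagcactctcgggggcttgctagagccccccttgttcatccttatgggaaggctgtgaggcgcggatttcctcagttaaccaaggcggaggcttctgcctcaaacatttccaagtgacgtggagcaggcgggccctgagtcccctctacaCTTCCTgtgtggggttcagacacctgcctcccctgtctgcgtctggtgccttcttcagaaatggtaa
Pdcd1, chr1:94052504-94052803, minus strand: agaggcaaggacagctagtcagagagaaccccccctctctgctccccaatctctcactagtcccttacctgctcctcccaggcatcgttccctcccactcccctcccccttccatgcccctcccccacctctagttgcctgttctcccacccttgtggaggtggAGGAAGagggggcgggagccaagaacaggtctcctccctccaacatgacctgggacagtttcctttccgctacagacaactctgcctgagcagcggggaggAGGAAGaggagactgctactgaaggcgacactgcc
Slamf7, chr1:171648950-171649249, minus strand: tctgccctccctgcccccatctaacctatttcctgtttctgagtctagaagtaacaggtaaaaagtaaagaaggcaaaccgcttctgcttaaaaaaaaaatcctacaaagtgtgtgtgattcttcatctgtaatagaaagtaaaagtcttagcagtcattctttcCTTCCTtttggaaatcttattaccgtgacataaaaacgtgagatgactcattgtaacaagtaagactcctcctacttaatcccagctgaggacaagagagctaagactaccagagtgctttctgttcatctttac
The start sites of Cd3d and Cd3e lie 27825 bases apart, and Cd3g, the third chain of this cluster, starts 1355 bases from Cd3d. The Ets letters occur on either strand 2 times each in the Cd3d, Cd3e and Pdcd1 windows 1 time in that of Slamf7 and 0 times in that of Cd3g, which is not printed. They are in 76.5% of the 17 promoters listed for 14 of the 18 genes that were higher under ricolinostat, in 42.4% of the 580 promoters of tested panel genes and in 35.4% of all 32851 promoters of this length. The letters TGTGGT or ACCACA, which Runx factors can bind, are in none of the 4 windows shown and in 17.6%, 16.4% and 16.8% of the same 3 sets. No match of one motif overlapped a match of the other in the windows shown. A match of letters is a description and no binding was measured.

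Of the 18 genes higher under ricolinostat than under JQ1, 9 belong to the lists of T cell receptor and T cell surface genes. Those lists hold 12 and 14 of the 630 tested genes. They were chosen with earlier results of these data known, so the overlap is a description and no independent test. Il2rb, Pdcd1, the CD3 chain genes Cd3d, Cd3e and Cd247, the kinase gene Lck, Cd5, Ctla4 and Cxcr6 were well above the floor in both ricolinostat libraries and at or near it in both JQ1 libraries. Differences were tested with limma on log2(signal + 1) in the 6 T cell libraries, over 630 genes. It called 18 genes higher under ricolinostat, 2.86% of those tested, and 1 lower, 0.159%, or 3.02% in either direction, at a Benjamini-Hochberg adjusted p below 0.05, with 78 at an unadjusted p below 0.05. The median difference over all 630 genes was 0.46, ricolinostat minus JQ1 on the log2 scale. In 33.7% of the tested genes both ricolinostat libraries lay above both JQ1 libraries, and in 11.6% both lay below, so separation of 2 libraries from 2 is common.

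The calls did not hold without any 1 library of the other groups, though leaving out a vehicle library left the fitted differences unchanged. Without either JQ1 library, or without either vehicle library, limma called 0 genes in each direction, with 40 to 51 at an unadjusted p below 0.05, where a lone library is taken to vary like the others. It also called 0 in each direction when fitted on the 4 JQ1 and ricolinostat libraries alone, with a pseudocount of 20 or with array weights. The main fit takes 1 spread per gene for all T cell groups. Replicate SDs were 2.21 under ricolinostat, 0.852 under JQ1 and 0.646 under vehicle, so its p-values may understate the variation between ricolinostat libraries. Array weights were 0.107 for the ricolinostat libraries, 2.49 for JQ1 and 3.75 for vehicle.

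**Figure D2:**
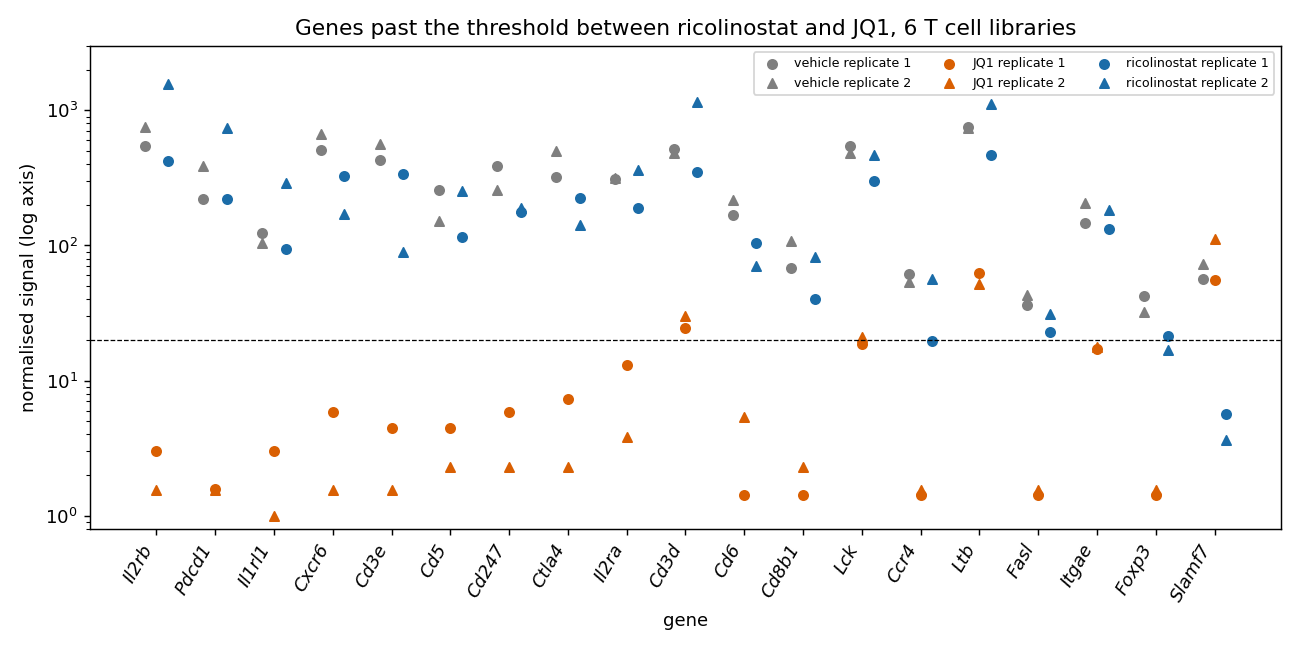
Normalised signal (log axis) of the 19 genes past the threshold in the 6 T cell libraries, in order of the fitted difference; the dashed line is the floor of 20, circles are replicate 1 and triangles replicate 2. For 15 of the 18 higher genes both JQ1 libraries lie at or below 20, and for Slamf7, on the right, both ricolinostat libraries do.

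Among the receptor chains, Cd3e, which carries the signal of the T cell receptor, read 4.42 and 1.55 in the JQ1 libraries, 339 and 88.9 in the ricolinostat libraries and 432 and 563 under vehicle. It was at least 8.32-fold higher under ricolinostat (limma adjusted p = 0.0276), where the bound sets the ricolinostat mean of log2(signal + 1) against a signal of 20. The JQ1 values lie below every other T cell library. Cd247, the zeta chain of the complex, read 5.84 and 2.29 with JQ1 against 178 and 189.8 with ricolinostat, at least 8.8-fold higher (limma adjusted p = 0.0225), and the ricolinostat replicates were close to each other here. Cd3d was the chain still measured under JQ1, at 24.4 and 30.1, against 349 and 1159 under ricolinostat and 519.8 and 483 under vehicle. Its log2 difference was 4.5 ± 0.7 (SE) (limma adjusted p = 0.0326), and ricolinostat replicate 2 was above both vehicle libraries. Cd3g read 10.1 and 1.55 with JQ1 against 577 and 45.6 with ricolinostat. The 2 ricolinostat libraries thus differed widely for this chain, and it did not pass (log2 difference 4.95 ± 1.33 (SE), limma adjusted p = 0.185).

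The kinase Lck, which phosphorylates the CD3 chains, read 18.7 and 20.9 under JQ1, 299 and 467 under ricolinostat and 549 and 485 under vehicle, a log2 difference of 4.18 ± 0.51 (SE) (limma adjusted p = 0.0225). One of its JQ1 libraries lay just under the floor and the other just over it. Zap70, the kinase recruited next, read 15.8 and 20.9 with JQ1 against 88.5 and 572 with ricolinostat. Both ricolinostat values are higher, but far apart, and the log2 difference of 3.56 ± 0.93 (SE) had a limma adjusted p of 0.170. Cd4, the coreceptor of helper T cells that macrophages also express in these data, read 85.7 and 87.4 with JQ1 against 149 and 1318 with ricolinostat (limma adjusted p = 0.422), against 104 and 131 in the JQ1 macrophage libraries. Of the 12 tested genes in the list of receptor and proximal signalling genes 5 were higher, 0 lower and 7 did not pass, against 2.86% higher over all tested genes. All 12 lay above both JQ1 libraries in both ricolinostat libraries, against 33.7% of all tested genes, and their median log2 difference was 4.1, or 2.66 with genes at the floor held at their bound. The list's summed signal is dominated by the actin-bundling protein gene Lcp1, which all leukocytes express: without it the sum was 186 and 176 under JQ1, 2282 and 4125 under ricolinostat and 3561 and 3688 under vehicle. Lcp1 was named after its values were seen.

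Among surface receptors of T cells, Il2rb, the chain that interleukin-2 and interleukin-15 receptors share, read 2.99 and 1.55 under JQ1, 419.6 and 1567 under ricolinostat and 543 and 758 under vehicle. It was at least 38.7-fold higher under ricolinostat (limma adjusted p = 0.0225), with ricolinostat replicate 1 below and replicate 2 above both vehicle libraries. Cxcr6, the receptor for CXCL16, read 5.84 and 1.55 with JQ1 against 326 and 172 with ricolinostat, at least 11.3-fold higher (limma adjusted p = 0.0225). Il1rl1, the receptor for interleukin-33, read 2.99 and 1 with JQ1 against 93.6 and 291 with ricolinostat, at least 7.91-fold higher (limma adjusted p = 0.0225). Cd5 and Cd6, scavenger-type receptors that tune T cell receptor signals, were at least 8.18- and 4.14-fold higher (limma adjusted p = 0.0225 and 0.0276). Cd5 read 4.42 and 2.29 with JQ1 against 116 and 251 with ricolinostat. Cd6 read 1.43 and 5.38 with JQ1 against 104 and 70.8 with ricolinostat in the same order, and for neither gene did the drugs overlap.

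Other surface genes were separated without passing. Thy1, a glycoprotein of all mouse T cells, read 2.99 and 2.29 with JQ1 against 382 and 49.2 with ricolinostat, at least 6.6-fold higher (limma adjusted p = 0.058). Here ricolinostat replicate 1 was at 63.5% of the vehicle mean and replicate 2 at 8.19%. Icos read 4.42 and 6.93 with JQ1 against 376 and 60.04 with ricolinostat (limma adjusted p = 0.078), again with a low replicate 2. Il7r, the interleukin-7 receptor chain, read 187 and 135 with JQ1 against 452 and 2836 with ricolinostat (limma adjusted p = 0.274), and Cd2, an adhesion receptor, 77.1 and 78.1 with JQ1 against 206 and 406 with ricolinostat (limma adjusted p = 0.226). Cd28 read 13 and 8.48 with JQ1 against 21.2 and 24 with ricolinostat, both close to the floor (limma adjusted p = 0.455). In the list of 14 surface and identity genes 4 were higher, against 2.86% of all tested genes, 0 lower and 10 did not pass. All 14 lay above both JQ1 libraries in both ricolinostat libraries, against 33.7% of all tested genes. The median log2 difference was 2.94, or 2.29 with genes at the floor held at their bound. The summed signal of this list was 364 and 315 in the JQ1 libraries, 2679 and 5754 in the ricolinostat libraries and 4655 and 5103 under vehicle. Of its 14 genes 3 and 4 exceeded 20 in the JQ1 libraries and 13 and 14 in the ricolinostat libraries. Ltb, the lymphotoxin beta chain of lymphocytes, was also called and is named here after its values were seen: it read 62.9 and 51.8 with JQ1 against 471 and 1113 with ricolinostat (log2 difference 3.64 ± 0.6 (SE), limma adjusted p = 0.0382).

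Inhibitory receptors of T cells were among the genes at the floor under JQ1. Pdcd1, which encodes PD-1, read 1.57 and 1.55 under JQ1, 221 and 741 under ricolinostat and 220.4 and 388 under vehicle, at least 19.3-fold higher under ricolinostat (limma adjusted p = 0.0225). Ricolinostat replicate 1 lay at the lower vehicle library and replicate 2 above both. Ctla4, the CD28 competitor on activated and regulatory T cells, read 7.27 and 2.29 with JQ1 against 223 and 143 with ricolinostat, at least 8.55-fold higher (limma adjusted p = 0.0247). Lag3 read 42.9 and 62.6 with JQ1 against 55.7 and 716 with ricolinostat. Its replicate 1 lay between the JQ1 libraries and only replicate 2 was above them (limma adjusted p = 0.482). Havcr2, which encodes TIM-3 and is expressed by macrophages too, read 62.9 and 31.7 with JQ1 against 48.8 and 42 with ricolinostat, and Tigit 32.9 and 8.48 with JQ1 against 24.7 and 3.6 with ricolinostat, with limma adjusted p of 0.984 and 0.684. For both genes the libraries of the drugs overlap. Pdcd1lg2, a ligand of PD-1 made by myeloid cells, read 48.6 and 64.2 with JQ1 against 138 and 929 with ricolinostat (limma adjusted p = 0.317). In all, 2 of the 12 tested inhibitory receptors and ligands were higher and 0 lower, against 2.86% higher over all tested genes. Their median log2 difference was 0.6 against 0.46 over all genes.

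Of 13 tested regulatory T cell genes 4 were higher under ricolinostat, 0 lower and 9 did not pass, against 2.86% higher over all tested genes. Their fitted differences were positive in 7 and negative in 6. In 6 of the 13 both ricolinostat libraries lay above both JQ1 libraries, against 33.7% of all tested genes. Foxp3, the factor that defines these cells, read 1.43 and 1.55 under JQ1, 21.2 and 16.8 under ricolinostat and 42.3 and 32.1 under vehicle. It passed (limma adjusted p = 0.0382), but with JQ1 under the floor and the ricolinostat libraries on either side of it no fold above 1 can be given. Il2ra, the alpha chain of the interleukin-2 receptor, read 13 and 3.84 with JQ1 against 190.2 and 359 with ricolinostat, at least 12.5-fold higher (limma adjusted p = 0.027). The chemokine receptor Ccr4 read 1.43 and 1.55 with JQ1 against 19.5 and 56.4 with ricolinostat. Its fitted difference passed (limma adjusted p = 0.0416), but ricolinostat replicate 1 lay just under the floor, so no fold is given for this gene either. The 4th was Ctla4, given above. Among the negative ones, the ectoenzyme genes Entpd1 and Nt5e, which take part in adenosine production, read 1259 and 1179 with JQ1 against 1384 and 240.3 with ricolinostat, and 1082 and 985 with JQ1 against 1366 and 226 with ricolinostat, in that order, and Il10 read 25.8 and 17.8 with JQ1 against 22.9 and 3.6 with ricolinostat. For these 3 genes it was replicate 2 that lay below both JQ1 libraries. These 3, Tnfrsf4 (-0.31), Ccr8 (-0.09) and Tigit complete the 6, and Entpd1, Nt5e, Il10, Tnfrsf4 and Ccr8 were named after their values were seen (limma adjusted p = 0.502 to 0.945). The list's median log2 difference was 1.93, or 0 with genes at the floor held at their bound, 0.79 for ricolinostat replicate 1 and 2.84 for replicate 2. Of the 11 tested costimulatory receptors and ligands 0 passed in each direction, by limma with both libraries, with a median of 1.03. Its largest differences were Icos, Cd40lg, the ligand by which helper T cells activate B cells and macrophages (13 and 1 with JQ1 against 79.8 and 96.1 with ricolinostat, limma adjusted p = 0.131), Tnfrsf18, which encodes GITR (21.5 and 20.9 with JQ1 against 55.7 and 193 with ricolinostat, limma adjusted p = 0.250), and Cd27 (10.1 and 3.84 with JQ1 against 24.7 and 27.6 with ricolinostat, limma adjusted p = 0.248).

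The CD8 chains, coreceptors of cytotoxic T cells, belong to the receptor list above. Cd8b1 read 1.43 and 2.29 under JQ1, 40.2 and 81.7 under ricolinostat and 67.8 and 108 under vehicle, at least 2.78-fold higher under ricolinostat (limma adjusted p = 0.027). Cd8a read 1 and 2.29 with JQ1 against 79.8 and 20.4 with ricolinostat, where replicate 2 was barely above the floor, and it did not pass (limma adjusted p = 0.0697). Fasl, the death ligand of cytotoxic lymphocytes, read 1.43 and 1.55 with JQ1 against 22.9 and 31.2 with ricolinostat, at least 1.32-fold higher (limma adjusted p = 0.027). The pore-forming protein gene Prf1 read 17.2 and 3.84 with JQ1 against 36.7 and 121 with ricolinostat, and the cytokine gene Ifng 5.84 and 10.02 with JQ1 against 24.7 and 27.6 with ricolinostat, with limma adjusted p of 0.250 and 0.391. Gzmb, a granule protease, read 4.42 and 11.6 with JQ1 against 48.8 and 3.6 with ricolinostat, so the replicates lie on either side of the JQ1 libraries (limma adjusted p = 0.668). The natural killer receptors Klrk1 and Klrd1 read 2.99 and 1 with JQ1 against 47.1 and 16.8 with ricolinostat, and 8.7 and 5.38 with JQ1 against 113 and 27.6 with ricolinostat, in that order (limma adjusted p = 0.154 and 0.203). Of the 14 tested cytotoxic and natural killer genes 1 was higher, 0 lower and 13 did not pass, against 2.86% higher over all tested genes. The median of 1.69 became 0.49 with genes at the floor held at their bound. A further 10 of the 24 measured genes of this list were too low to test.

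The transcription factors of lymphocytes were less uniform. Apart from Foxp3, 0 of the other 16 tested factors passed limma with both libraries. Ets1, a factor of T, B and natural killer cells, read 361 and 217 under JQ1, 1316 and 1069 under ricolinostat and 2359 and 2023 under vehicle (log2 difference 2.08 ± 0.53 (SE), limma adjusted p = 0.158). It was thus well above the floor in every T cell library, while the macrophage libraries under the same drugs read 2.12 and 27.5 and 12.1 and 7.41. Gata3 read 4.42 and 1 with JQ1 against 43.6 and 60.04 with ricolinostat (limma adjusted p = 0.102), and Eomes 4.42 and 13.1 with JQ1 against 22.9 and 27.6 with ricolinostat (limma adjusted p = 0.391). Tcf7, a factor of naive and memory T cells, read 28.7 and 13.1 under JQ1, 563 and 9.57 under ricolinostat and 1034 and 635 under vehicle. Here the ricolinostat libraries lay on opposite sides of the JQ1 libraries, and the fitted difference of 1.92 ± 1.79 (SE) describes neither (limma adjusted p = 0.550). Stat4 read 10.1 and 1.55 with JQ1 against 38.5 and 16.8 with ricolinostat (limma adjusted p = 0.354). Tbx21, the factor of type 1 helper cells, exceeded 20 in 1 vehicle library only and was not tested.

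Genes lower under ricolinostat were led by Slamf7. This receptor of the SLAM family, found on natural killer cells, activated lymphocytes and myeloid cells, read 55.8 and 112 under JQ1, 5.68 and 3.6 under ricolinostat and 56 and 72.3 under vehicle. Both ricolinostat libraries were at the floor, and it was at least 3.82-fold lower than under JQ1 (limma adjusted p = 0.0312). The call ended without ricolinostat replicate 2 (log2 difference -3.58, limma adjusted p = 0.0651). Ly9, another receptor of the family, read 1854 and 1348 with JQ1 against 715 and 312 with ricolinostat (limma adjusted p = 0.317). The other genes with both ricolinostat libraries below both JQ1 libraries and the smallest p did not pass. Among them the neutrophil chemoattractant Cxcl5 read 104 and 145 with JQ1 against 43.6 and 20.4 with ricolinostat, and the mesenchymal factor Twist1 65.7 and 30.1 with JQ1 against 16 and 3.6 with ricolinostat (limma adjusted p = 0.226 and 0.313). Csf1, the macrophage growth factor, read 449 and 344 with JQ1 against 157 and 16.8 with ricolinostat, and Raet1, which encodes ligands of the activating receptor NKG2D, 870 and 881 with JQ1 against 459 and 70.8 with ricolinostat (limma adjusted p = 0.339 and 0.391). For the transferrin receptor gene Tfrc the values were 2416 and 2372 with JQ1 against 1435 and 716 with ricolinostat, and for the fatty acid transporter gene Cd36 14095 and 14065 with JQ1 against 9217 and 2014 with ricolinostat (limma adjusted p = 0.422 and 0.437). The ciliated cell factor Foxj1, the enzyme gene Cd38 and the chemokine receptor gene Cxcr2 differed from JQ1 on the log2 scale by -1.05, -0.63 and -0.85 in ricolinostat replicate 1 and by -4.39, -2.21 and -4.03 in replicate 2 (limma adjusted p = 0.410, 0.437 and 0.437 with both). In these genes ricolinostat replicate 2 was the lower of the pair.

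Each ricolinostat library was then set against the JQ1 libraries without the other. In such a fit the spread comes from the JQ1 and vehicle pairs alone, with replicate SDs of 0.852 and 0.646 against 2.21 under ricolinostat. The p-values and calls of these fits therefore cover no variation between ricolinostat libraries. Ricolinostat replicate 1 alone gave 26 genes higher, 4.13% of the 630, and 0 lower by limma, with 105 at an unadjusted p below 0.05. The 8 genes with the largest fitted differences all lay below the floor under JQ1, so their order is not given. Against a signal of 20, Il2rb was at least 20.03-fold higher in this library, Thy1 at least 18.2-fold, Icos 18-fold, Cd3e 16.2-fold, Cxcr6 15.6-fold, Ctla4 10.7-fold, Pdcd1 10.6-fold and Cd247 8.53-fold, with limma adjusted p from 0.00951 to 0.0487. By fitted log2 difference, which depends on the pseudocount for genes under the floor, Tcf7 (4.78, limma adjusted p = 0.0487), Zap70 (2.22, 0.042), Cd8a (4.98, 0.0341), Klrd1 (3.85, 0.0435) and Ccr7, the lymph node homing receptor (2.67, 0.0272), passed with this library alone. Il2ra (4.54, 0.0799) and Cd6 (4.74, 0.0651) did not. In this library 7 of the 12 receptor and signalling genes and 5 of the 14 surface genes were called higher, and the median difference over all genes was 0.14. Of the 18 genes called higher with both libraries, 17 were below both vehicle libraries in ricolinostat replicate 1 (94.4%, against 59.5% of all tested genes). In replicate 2, 8 were below both vehicle libraries (44.4%, against 45.6%) and 6 above both (33.3%, against 47.6%).

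Ricolinostat replicate 2 alone gave 259 genes higher, 41.1%, and 145 lower, 23%, or 64.1% in either direction. With so high a share called, a call in this library alone says little about a single gene. Its largest positive differences mixed T cell genes with others. H2-Eb1, a chain of MHC class II, read 139.9 and 434 under JQ1, 759 in ricolinostat replicate 1 and 290877 in replicate 2, a log2 difference of 10.2 (limma adjusted p = 0.00261). The macrophage libraries of ricolinostat showed the same split, 912 and 402722. Hcst, an adaptor of activating receptors, read 229.7 and 247 with JQ1 against 309 and 13376 with ricolinostat. Runx3 read 28.7 and 11.6 with JQ1 against 19.5 and 1029.7 with ricolinostat, and the inflammasome sensor Nlrp3 2046 and 2756 with JQ1 against 2415 and 117577 with ricolinostat. In all 3 the first ricolinostat library lay between the JQ1 libraries or close to them and the second far above. Il17a, the cytokine of type 17 T cells, read 4.42 and 1 with JQ1 against 38.5 and 255 with ricolinostat, higher in both (limma adjusted p = 0.0798 with both libraries). The largest negative differences were Ceacam1, at 727 and 1091 with JQ1 against 923 and 2.36 with ricolinostat, the chemokine Cxcl1, at 692 and 1139 with JQ1 against 739 and 3.6 with ricolinostat, and Lbp, a lipopolysaccharide-binding protein, at 861 and 1436 with JQ1 against 1222 and 9.57 with ricolinostat. The Fc receptor Fcgr3 read 8106 and 8529 with JQ1 against 9398 and 103 with ricolinostat, and the signalling genes Smad2, Stat2 and Nfatc3 read 3.6, 13.2 and 13.2 in replicate 2 against 326, 766 and 539 in replicate 1. Arg1 read 2922 and 539 under JQ1, where the replicates themselves differ, and 575 and 20.4 under ricolinostat. With both ricolinostat libraries in the fit these genes other than the T cell genes had limma adjusted p of 0.422 to 0.483. Of the 630 tested genes 240 differed by more than 2 on the log2 scale between the ricolinostat replicates.

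**Figure D3:**
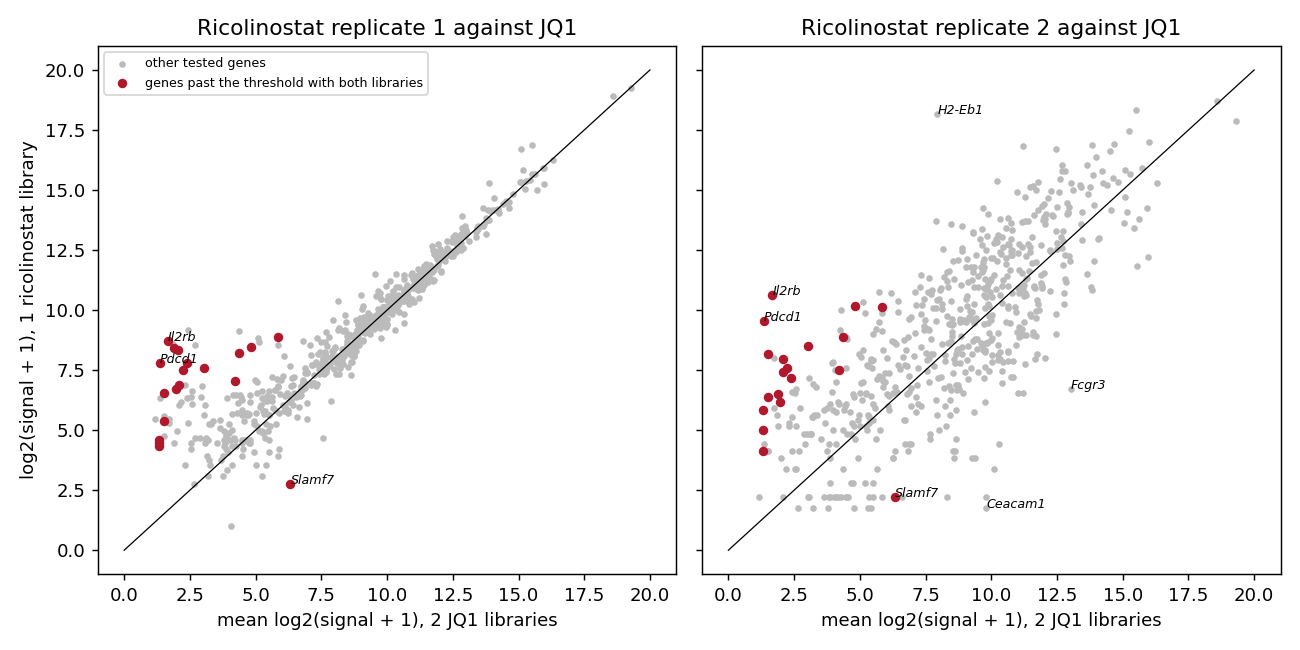
Log2(signal + 1) of 630 genes in ricolinostat replicate 1 (left) and replicate 2 (right) against the mean of the 2 JQ1 libraries; the line marks equality and red points are the 19 genes past the threshold with both libraries. The grey points follow the line on the left and scatter widely on the right, while the red points other than Slamf7 lie above the line in both panels.

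Markers of other cells were compared beside the T cell genes. Of 10 tested epithelial and tumour genes 0 passed, by limma with both libraries, with a median log2 difference of -0.52. Their summed signal was 89692 and 83811 in the JQ1 libraries, 58103 and 23186 in the ricolinostat libraries and 18672 and 23379 under vehicle. Cxcl15 was the largest part of it under JQ1, at 66115 and 60816 under JQ1, 38939 and 4800.2 under ricolinostat and 10003 and 13529 under vehicle (limma adjusted p = 0.437). Epcam, an adhesion molecule of epithelial cells, read 4468 and 4066 under JQ1, 3160.1 and 258 under ricolinostat and 1561 and 1562 under vehicle (limma adjusted p = 0.482). Both JQ1 libraries were thus above both ricolinostat libraries, and ricolinostat replicate 1 was above vehicle. The part of epithelial cells in the T cell gene differences was not tested. The 27 tested macrophage identity genes had 0 calls and a median of 0.36, and their summed signal was 1218700 and 1279810 in the JQ1 libraries, 1347420 and 957791 in the ricolinostat libraries and 1556960 and 1545220 under vehicle. The largest fitted difference of the list, -3.07 for the Fc receptor gene Fcgr3, comes from ricolinostat replicate 2 and its values are given above. Ccr2, the receptor of recruited monocytes, read 167 and 254 with JQ1 against 542 and 1610.1 with ricolinostat (limma adjusted p = 0.317). Trem2 and Cx3cr1, receptors of tissue macrophages, in ricolinostat replicate 1 differed from JQ1 by 0.29 and 0.46 on the log2 scale and in replicate 2 by 3.93 and 3.7.

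Dendritic cell genes had 1 call among 9 tested, against 3.02% called in either direction over all tested genes. It was Itgae, the integrin chain CD103 that resident T cells carry as well, at 17.2 and 17.8 under JQ1, 132 and 183 under ricolinostat and 146 and 206 under vehicle, at least 7.43-fold higher (limma adjusted p = 0.0382). Ccr7 read 60.03 and 54.9 with JQ1 against 369.6 and 132 with ricolinostat (limma adjusted p = 0.298). Lamp3, a lysosomal protein of mature dendritic cells and of alveolar type 2 cells, went the other way, at 6661 and 7318 with JQ1 against 5945 and 1228 with ricolinostat (limma adjusted p = 0.482). The list's summed signal was 11906 and 13837 in the JQ1 libraries, 12964 and 12480.4 in the ricolinostat libraries and 10311 and 10839 under vehicle. Of 8 tested B cell genes 0 passed, and the summed signal was 3513 and 3718 in the JQ1 libraries, 3999 and 14150.4 in the ricolinostat libraries and 4522 and 4791 under vehicle. Ms4a1, which encodes CD20, read 47.2 and 14.7 with JQ1 against 21.2 and 2.36 with ricolinostat (limma adjusted p = 0.482). Cr2, a complement receptor of B cells, read 11.6 and 6.93 with JQ1 against 36.7 and 110.5 with ricolinostat, and the kinase gene Blk 15.8 and 5.38 with JQ1 against 40.2 and 49.2 with ricolinostat (limma adjusted p = 0.176 and 0.238). The 6 tested neutrophil and granulocyte genes had 0 calls and a median of -0.67, with a summed signal of 7354 and 5371 in the JQ1 libraries, 4687 and 3362 in the ricolinostat libraries and 9208 and 7884 under vehicle. Stromal and endothelial genes had 0 calls among 15 and a median of 0.96, and their summed signal was 14062 and 10054 in the JQ1 libraries, 11825 and 72459.9 in the ricolinostat libraries and 11832 and 16132 under vehicle. Col1a1, the fibrillar collagen of fibroblasts, read 51.5 and 17.8 with JQ1 against 133 and 291 with ricolinostat (limma adjusted p = 0.410), with vehicle at 798 and 106. Col3a1, a collagen of the same cells, read 21.5 and 1.55 with JQ1 against 81.6 and 20.4 with ricolinostat (limma adjusted p = 0.455), and S100a8, a calcium-binding protein of neutrophils, 2762 and 2434 with JQ1 against 1915 and 2573 with ricolinostat (limma adjusted p = 0.838). Ncr1, which marks natural killer cells, read 25.8 and 8.48 with JQ1 against 36.7 and 56.4 with ricolinostat. Ncr1 was named after its values were seen.

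MHC class II genes, which present antigen to helper T cells, were not called, with 0 of 11 past limma and a median log2 difference of 1.25. In ricolinostat replicate 1 all 11 were above the JQ1 mean, with a median of 1.16, and 0 passed. Cd74, the invariant chain that accompanies class II molecules, was abundant in every library and read 29349 and 73834 under JQ1, 119822 and 325460.3 under ricolinostat and 141809.8 and 181086 under vehicle (limma adjusted p = 0.337). JQ1 replicate 1 was the lowest of the 6 and JQ1 replicate 2 the next. H2-Ob, a chain that modulates peptide loading, read 15.8 and 28.6 with JQ1 against 48.8 and 467 with ricolinostat (limma adjusted p = 0.383). The list's summed signal was 98027 and 204294 in the JQ1 libraries, 337716 and 753636 in the ricolinostat libraries and 394637 and 478078 under vehicle, and it includes H2-Eb1. MHC class I and peptide loading genes had 0 calls among 14, a median of 1.03 with both libraries, 0.2 in replicate 1 and 1.93 in replicate 2. Tap2, a peptide transporter subunit, read 418 and 531 with JQ1 against 540.3 and 11602 with ricolinostat, and H2-T23, a nonclassical class I gene, 650.4 and 1348 with JQ1 against 1104 and 16595 with ricolinostat (limma adjusted p = 0.482 and 0.482). H2 genes have close relatives, and signals of single members may hold some of another's.

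Inflammatory programs did not pass as single genes. Of 28 interferon response genes, 15 genes of NF-kB subunits and regulators, 10 immediate-early and MAP kinase phosphatase genes, 16 inflammatory cytokines, 30 chemokines, 18 complement genes, 27 pattern receptors and adaptors and 5 enzymes or transporters of arginine and tryptophan metabolism, 0 passed limma with both libraries. Their median log2 differences were 0.2, 0.69, 0.38, 0.45, 0.4, 0.4, 0.48 and -0.86 in that order, against 0.46 over all genes. The medians in ricolinostat replicate 1 alone ran from -0.18 for immediate-early genes to 0.46 for complement, against 0.14 over all genes. In replicate 2 they ran from -2.37 for arginine and tryptophan metabolism to 1.72 for NF-kB, against 0.79 over all genes. Fos and Jun, subunits of the AP-1 factor, show the pattern: Fos read 19512 and 27470.3 with JQ1 against 22771 and 101222 with ricolinostat, and Jun 5276 and 6160.4 with JQ1 against 5031 and 514 with ricolinostat. Replicate 1 differed little from JQ1 in either, and replicate 2 was high in one and low in the other. Il1b read 3863 and 3232 with JQ1 against 5126 and 41175 with ricolinostat, and Relb, an NF-kB subunit, 598 and 657 with JQ1 against 642 and 9616 with ricolinostat (limma adjusted p = 0.473 and 0.482). Ccl5, a chemokine of T and natural killer cells, read 30.1 and 37.9 under JQ1, 406 and 129 under ricolinostat and 500.2 and 1071 under vehicle (limma adjusted p = 0.203), and Xcl1, made by cytotoxic lymphocytes, 1.57 and 6.93 with JQ1 against 71.2 and 9.57 with ricolinostat (limma adjusted p = 0.391). Ifit3, an interferon-induced gene, read 78.6 and 194 with JQ1 against 169.5 and 828 with ricolinostat, and the cytokine gene Tnf 74.3 and 99.7 with JQ1 against 91.9 and 961 with ricolinostat (limma adjusted p = 0.482 and 0.482). The complement component gene C4b read 312 and 1811 with JQ1 against 2865 and 8066 with ricolinostat, with JQ1 replicates far apart, and the anaphylatoxin receptor gene C3ar1 1154 and 581 with JQ1 against 1529 and 19727 with ricolinostat (limma adjusted p = 0.371 and 0.422). Slc7a11, a cystine transporter gene, read 408 and 316 with JQ1 against 385 and 485 with ricolinostat (limma adjusted p = 0.757), and its ricolinostat values lay within or close to the JQ1 values.

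**Figure D4:**
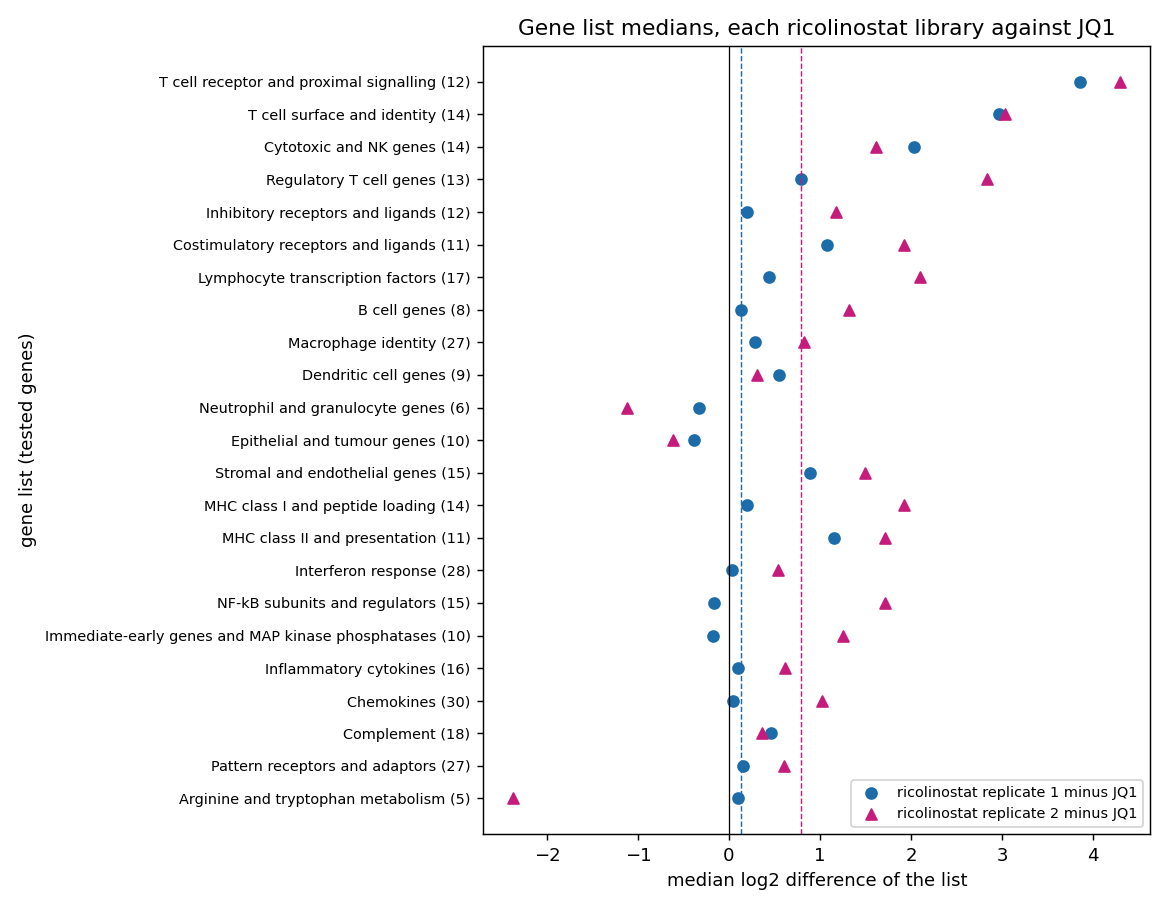
Median log2 difference from the JQ1 mean of each gene list in ricolinostat replicate 1 (circles) and replicate 2 (triangles), with the number of tested genes in brackets; dashed lines are the medians over all 630 genes. The list of T cell receptor genes lies at 3.86 and 4.3 and that of surface genes at 2.97 and 3.03, while lists such as MHC class I lie near the dashed line in replicate 1 only.

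The same contrast in macrophages was used to ask whether the difference between the drugs was larger in T cells. The difference between cell types was fitted by limma in all 12 libraries over 659 genes, and 2 genes passed, 0.303% of those tested, with 38 at an unadjusted p below 0.05. Pdcd1 read 2.65 and 2.41 in the JQ1 and 3.51 and 1.34 in the ricolinostat macrophage libraries, all below the floor, and the difference between ricolinostat and JQ1 was larger in T cells by 7.43 ± 0.95 (SE) on the log2 scale (limma adjusted p = 0.022). Il2rb read 2.12 and 2.41 and 3.51 and 8.74 in macrophages, and its difference was larger in T cells by 6.97 ± 1.01 (SE) (limma adjusted p = 0.0271). These fitted sizes rest on values below the floor in the JQ1 T cell libraries and all macrophage libraries of both drugs and are no bounds. Against a signal of 20 the T cell side alone was at least 19.3-fold for Pdcd1 and at least 38.7-fold for Il2rb. Since neither gene exceeded the floor in macrophages on either drug, the test cannot tell a drug difference particular to T cells from absence in macrophages. Cd3e (5.42, limma adjusted p = 0.167), Cd5 (4.11, 0.247) and Thy1 (5.26, 0.276) did not pass. Without both ricolinostat replicate 2 libraries the fitted differences were 6.26 for Thy1, 6.58 for Il2rb and 6.09 for Pdcd1. A lone ricolinostat library per cell type gives no spread of its own, so only these sizes are given. Towards a smaller difference in T cells 0 genes passed, with 38 genes of either direction at an unadjusted p below 0.05, and the smallest p belonged to the complement regulator Cfi (-3.37, limma adjusted p = 0.352), Cxcl5 (-2.97, 0.427) and the epithelial integrin Itgb4 (-4.16, 0.427). In macrophages Slamf7 read 49.2 and 157 with JQ1 against 29.7 and 7.41 with ricolinostat, with both ricolinostat values below both JQ1 values there as well, and the difference between the cell types was -1.38 (limma adjusted p = 0.999).

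The 2 calls did not hold without any 1 of the JQ1 or vehicle libraries of either cell type, where a lone library is taken to vary like the others. In those fits the fitted difference ran from 7.38 to 7.48 for Pdcd1 and from 6.65 to 7.29 for Il2rb. Leaving out a vehicle library left both sizes unchanged. With T cell and macrophage libraries paired by label number as a block 1 gene passed, Il2rb (limma adjusted p = 0.0244), and Pdcd1 did not (limma adjusted p = 0.105). That pairing is inferred.

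**Figure D5:**
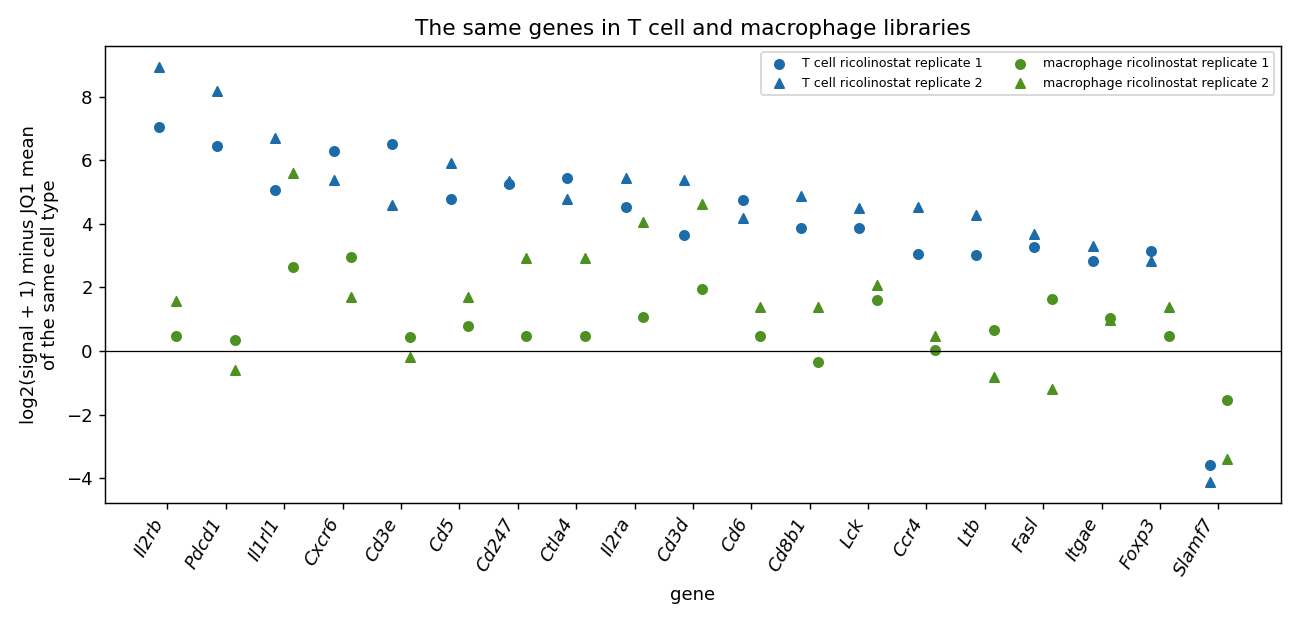
Log2(signal + 1) of each ricolinostat library minus the JQ1 mean of the same cell type, for the 19 genes past the threshold in T cells; blue is T cells, green macrophages, circles replicate 1 and triangles replicate 2. For Pdcd1 and Cd3e both macrophage points lie near 0, while for Il1rl1, Il2ra and Cd3d macrophage ricolinostat replicate 2 lies close to the T cell points, and Slamf7 is below 0 in all 4 libraries.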

How the data were processed

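RNA of T cells and macrophages from lung tumours was measured in 12 libraries with 770 NanoString probes, per the labels' protocols. The authors deposited normalised signal values on a linear scale; the sources used here do not give their background correction or normalisation. The low values lie on an even lattice in each library, from which the signal per count and the depth were read. Groups follow the labelled cell type and agent, with 2 libraries each, and replicate numbers follow record order. Values were tested as log2(signal + 1) with limma 3.58.1 (lmFit and eBayes, R 4.3.3), with 1 mean per group, in the 6 T cell libraries, and for the difference between cell types in all 12. The test took in genes above 20 in 2 or more libraries, and the 20 housekeeping genes were left out. P-values were Benjamini-Hochberg adjusted over all genes tested, at 0.05. Where all libraries of one drug lay at or below 20, the fold is a lower bound against 20 and covers no spread. The p-value beside such a bound is that of the fitted difference. Each ricolinostat library was also fitted alone against JQ1.

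Members, gene lists and tests were chosen with earlier results of these data known. Genes were named by a rule: the 12 largest differences per direction past the threshold with both ricolinostat libraries on one side of both JQ1 libraries, filled up by the smallest p; the 8 largest per direction for each ricolinostat library alone; the named T cell genes; up to 4 genes per list with the largest difference; and for the difference between cell types the 5 largest per direction past the threshold, or the 3 smallest p. Not every gene the rule allows is described. Of the 770 symbols 754 matched RefSeq's GRCm38.p6 table exactly, 10 through a synonym or letter case and 6 not at all. Promoters were read from its sequences with Python 3.11.15. Alternatives were leaving out each library, other libraries in the fit, array weights, scaling to the median, to quantiles or to housekeeping genes, pseudocounts of 10 and 20, no filter, and a mean above 100. T cell and macrophage libraries whose last label number differs by 6 were taken as pairs, since their deviations from the group means correlated above 0.1 in every group, at 0.135, 0.250 and 0.790 under vehicle, JQ1 and ricolinostat over 659 genes. The pairing was thus inferred from label numbers and these same values, and no label states it. With 2 libraries a group their deviations mirror each other, and the ricolinostat value holds the departure that both replicate 2 libraries share.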

Additional observations from a re-analysis of the deposited data

Results flagged for a closer look

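Il2rb and Pdcd1 were singled out because their difference between ricolinostat and JQ1 was larger in T cells than in macrophages by a test of that difference itself. For Il2rb the T cell difference of 7.99 exceeded the macrophage difference of 1.02 by 6.97 ± 1.01 (SE) on the log2 scale (limma adjusted p = 0.0271), and both T cell ricolinostat libraries lay above every JQ1 library. For Pdcd1 the T cell difference of 7.31 exceeded the macrophage difference of -0.12 by 7.43 ± 0.95 (SE) (limma adjusted p = 0.022), again with both T cell ricolinostat libraries above every JQ1 library. Both genes were below 20 in all 4 macrophage libraries of these drugs and in the JQ1 T cell libraries, so these sizes are fitted values and no bounds. For the same reason the test cannot tell a drug difference particular to T cells from absence of these genes in macrophages. The T cell side alone was at least 38.7-fold for Il2rb and at least 19.3-fold for Pdcd1. With T cell and macrophage libraries paired by label number as a block, limma's adjusted p was 0.0244 for Il2rb and 0.105 for Pdcd1. The Pdcd1 call ends under this inferred pairing. With median scaling limma's adjusted p was 0.0571 for Il2rb, which ends the Il2rb call, and 0.0168 for Pdcd1. Groups of 2 libraries are too small to look for outlying samples by the range test used for larger groups.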

How the results depend on the processing

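The 18 genes higher and 1 lower under ricolinostat became 0 to 259 higher and 0 to 145 lower as single libraries were left out: 0 and 0 without either JQ1 or either vehicle library, 259 and 145 without ricolinostat replicate 1, and 26 and 0 without ricolinostat replicate 2. The counts were 0 and 0 with the 4 JQ1 and ricolinostat libraries only (45 at an unadjusted p below 0.05). They were also 0 and 0 with array weights (30) and with a pseudocount of 20 (66). They were 7 and 0 with a pseudocount of 10, 10 and 1 with quantile scaling, and 13 and 0 with a mean above 100. The array weights were equal within pairs and so cannot part the replicates. They were lowest for the ricolinostat pair, at 0.107 against 2.49 for JQ1 and 3.75 for vehicle. Scaling to the median or to housekeeping genes, all 12 libraries in the fit, and no filter gave 14 to 20 higher and 1 lower. No paired analysis was possible because no number in the labels links a JQ1 to a ricolinostat T cell library. The 2 genes with a larger difference in T cells than in macrophages became 0 to 5 as single libraries were left out, with 0 to 1 the other way, and 0 without any one JQ1 or vehicle library, 4 without T cell ricolinostat replicate 2 and 5 without macrophage ricolinostat replicate 1. It was 1 with median scaling and 1 with the replicate block. The medians of the receptor and surface lists ran from 3.86 to 4.3 and from 2.74 to 3.41 in the alternatives run on them. The sign of single named genes turned in some fits: leaving out single libraries gave Ccr8 from -0.965 to 0.789, Ceacam1 from -8.05 to 0.0512, Entpd1 from -2.34 to 0.183, Fcgr3 from -6.32 to 0.177, Fos from -0.0239 to 2.13, Gzmb from -0.843 to 2.59, Havcr2 from -0.465 to 0.502, Il10 from -2.29 to 0.0936, Lbp from -6.72 to 0.135, Nt5e from -2.19 to 0.404, Smad2 from -6.12 to 0.0299, Stat2 from -5.57 to 0.186, Tcf7 from -0.953 to 4.78, Tigit from -1.96 to 0.517, Tnfrsf4 from -2.07 to 1.46 on the log2 scale, and other settings gave Havcr2 at -0.178 with median scaling, -0.951 with quantile scaling, -0.096 with housekeeping scaling, -0.00286 with a pseudocount of 20, and Lcp1 at -0.393 with quantile scaling, and Tnfrsf4 at 0.0508 with a pseudocount of 20. Among the fits without a single library, Ccr8, Ceacam1, Entpd1, Fcgr3, Fos, Il10, Lbp, Nt5e, Smad2 and Stat2 turned only without ricolinostat replicate 2. Gzmb and Tcf7 turned only without ricolinostat replicate 1. None of the genes that turned was past the threshold with both ricolinostat libraries, and the cause was not tested. Among the other values of named genes 1505 kept their direction and side of the threshold, 177 fell back across it and 73 came to pass it. The 1505 include genes that passed in neither fit, and only called genes can fall back, so these counts do not measure how well calls held. Low signals limit what can be seen: a signal of 20 stands for few counts in ricolinostat replicate 2.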
